A study of Homo sapiens with 9 samples.

Results

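R-loops are stretches of RNA paired to a template DNA strand, and the 8 genes described here encode enzymes known to remove them, to limit their formation or to clear nucleic acids in the same disease pathway. The genes are RNASEH1, RNASEH2A, RNASEH2B, RNASEH2C, AQR, TOP1, SAMHD1 and TREX1, taken by gene symbol from a table of 61806 genes. RNASEH1 was the starting point because of its large fall in PARP1 knockdown, so its values in comparisons with the PARP1 knockdown libraries are a description without a test. The other genes were chosen by name and function.

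RNase H enzymes cut the RNA strand of an RNA-DNA hybrid. RNase H1, the product of RNASEH1, acts alone in the nucleus and in mitochondria, whereas RNase H2 is a complex of the catalytic subunit RNASEH2A with RNASEH2B and RNASEH2C and also removes single ribonucleotides from DNA. AQR is a helicase of the spliceosome that unwinds hybrids, and TOP1 relaxes the negative supercoils behind RNA polymerase that favour R-loops. SAMHD1 degrades deoxynucleotides and acts at stalled replication forks, and TREX1 is a cytosolic DNA exonuclease. Loss of function of SAMHD1, TREX1 or any RNase H2 subunit causes Aicardi-Goutières syndrome, an inflammatory disease with raised interferon signalling.

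Polyadenylated RNA was sequenced from 786-O cells, an established human renal carcinoma line that lacks functional VHL, labelled as wild type in genotype. The 9 libraries form 3 groups of 3: cells with a negative control reagent, called parental elsewhere in the labels, cells with TRIM28 knockdown and cells with PARP1 knockdown. The reagents are siRNA by title and treatment but shRNA by description, so their kind is uncertain, and all 9 libraries carry 1 batch label. TRIM28 is a corepressor recruited to chromatin by KRAB zinc finger proteins, and PARP1 adds poly(ADP-ribose) chains to proteins where DNA is damaged. Nothing in the labels says that replicates were separate cultures, so p-values measure the spread between these libraries, which may be technical.

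The libraries held 11963110 to 20224374 counts each, and the low-count filter left 13562 genes. Levels are given as CPM, counts scaled to library size with TMM factors, with SD over n = 3 libraries. A gene is said to rise or fall at a Benjamini-Hochberg adjusted p below 0.05 in the quasi-likelihood test of edgeR over all 13562 genes, and errors of log2 fold changes are standard errors. TRIM28 itself was at 316, 341 and 381 CPM in control and at 44.0, 54.7 and 58.0 CPM in TRIM28 knockdown, and PARP1 at 178, 200 and 153 CPM in control and at 6.82, 4.48 and 5.24 CPM in PARP1 knockdown. In TRIM28 knockdown PARP1 was at 94.4, 93.3 and 93.6 CPM, 1.89-fold lower than in control (log2 fold change -0.92 ± 0.14, edgeR adjusted p = 3.61e-05). Of 8 renal carcinoma markers, 7 were expressed in every library, PAX8 at 33.1 to 55.1 FPKM, and NDUFA4L2 had at most 3 counts. Of 3 white blood cell markers, PTPRC and CD3E had 0 counts in all 9, and CD68 was at 0.40 to 1.08 FPKM. Long genes read lower in the knockdown libraries relative to control. Log2 levels, each set against the gene's mean over the 9 libraries, were fitted on log2 exon length, so the slopes are relative. The slope was 0.0725 to 0.203 in the control libraries, -0.0244 to -0.00085 with TRIM28 knockdown and -0.167 to -0.0968 with PARP1 knockdown. In bulk RNA, less RNA per cell and fewer expressing cells cannot be told apart.

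Start regions are shown for RNASEH1, which shares its start with a divergent transcript, and for the RNase H2 subunit genes RNASEH2A and RNASEH2C, which rose in PARP1 knockdown. Each runs from 250 bases before to 50 bases after the RefSeq start on GRCh38.p14, 5′ to 3′ on the gene's own strand. RNASEH1 is on the minus strand at chr2:3558284-3558583, and its capitals mark the 52 bases between its start and that of RNASEH1-DT, which runs the other way. RNASEH2A is on the plus strand at chr19:12806334-12806633, and its capitals mark a CCAAT on the opposite strand, read here as ATTGG, and a CGGAAG. RNASEH2C is on the minus strand at chr11:65720749-65721048 and has no capitals because none of the motifs searched was found.
RNASEH1: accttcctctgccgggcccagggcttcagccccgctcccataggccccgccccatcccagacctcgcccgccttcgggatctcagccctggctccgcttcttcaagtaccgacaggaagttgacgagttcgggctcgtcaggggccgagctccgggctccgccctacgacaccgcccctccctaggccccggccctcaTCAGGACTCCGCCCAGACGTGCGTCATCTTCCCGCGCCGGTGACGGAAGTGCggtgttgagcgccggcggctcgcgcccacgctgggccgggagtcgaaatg
RNASEH2A: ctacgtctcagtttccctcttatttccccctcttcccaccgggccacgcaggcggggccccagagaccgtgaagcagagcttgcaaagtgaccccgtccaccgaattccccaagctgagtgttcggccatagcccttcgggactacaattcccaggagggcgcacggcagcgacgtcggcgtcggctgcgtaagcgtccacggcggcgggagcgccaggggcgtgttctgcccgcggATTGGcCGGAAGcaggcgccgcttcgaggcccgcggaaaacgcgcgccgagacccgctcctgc
RNASEH2C: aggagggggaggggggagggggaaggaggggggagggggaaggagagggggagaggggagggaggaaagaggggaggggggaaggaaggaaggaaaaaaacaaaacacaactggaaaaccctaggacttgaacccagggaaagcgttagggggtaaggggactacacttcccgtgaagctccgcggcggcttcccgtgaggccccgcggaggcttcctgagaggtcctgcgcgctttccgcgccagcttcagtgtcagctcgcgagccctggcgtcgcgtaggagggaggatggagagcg

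3 motifs were searched on both strands. The GC box letters GGGCGG occur in 44.6% of 27305 RefSeq start regions of the same length. CGGAAG, a core bound by ETS factors, occurs in 19.9%, and its first bases can be shared with a GC box. The CCAAT box letters occur in 35.7%. The RNASEH1 region holds 4 GC boxes, 1 CGGAAG and 0 CCAAT matches, with a GC content of 70.3% and 33 CpG pairs. The RNASEH2A region holds 0, 1 and 1 matches, and the RNASEH2C region holds 0 of each. A match describes the letters and not a bound site.

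RNASEH1 (ENSG00000171865, GRCh38 chr2:3541430-3558333, minus strand) was at 33.9, 26.0 and 22.9 CPM in the control libraries. With TRIM28 knockdown it was at 18.3, 18.2 and 15.7 CPM, and with PARP1 knockdown at 1.92, 1.10 and 1.29 CPM. The groups do not overlap, and all 3 PARP1 knockdown libraries sit far below the other 6. The PARP1 knockdown values rest on 29, 13 and 13 counts, against 498 to 705 in control. For 13 counts the exact Poisson 95% interval is 6.92 to 22.2, which covers counting error only. The level was 18.7-fold lower than in control (log2 fold change -4.22 ± 0.23), the second lowest fold change of the 13562 genes after PARP1 itself, and 11.8-fold lower than with TRIM28 knockdown (-3.56 ± 0.24).

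RNASEH1 was also lower with TRIM28 knockdown, by a smaller amount. The mean was 17.4 ± 1.48 CPM against 27.6 ± 5.65 CPM in control, 1.59-fold lower (log2 fold change -0.67 ± 0.18, edgeR adjusted p = 0.00662). This test shares its control libraries with the contrast that singled RNASEH1 out. Control replicate 1, the highest library, decided the call: without it the log2 fold change was -0.48 with an edgeR adjusted p of 0.103. After removal of the trend on gene length it was -0.51 (adjusted p = 0.025), and after removal of length and GC trends -0.55 (0.016).

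**Figure D1:**
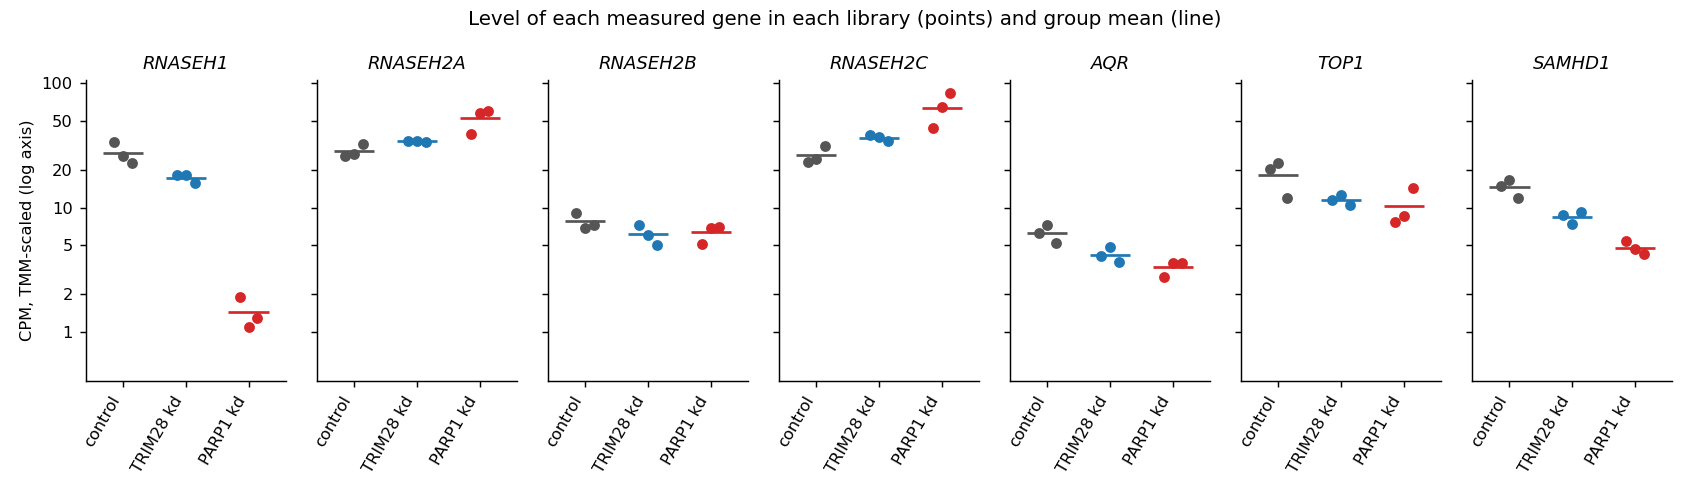
TMM-scaled CPM on a log axis for the 7 genes that passed the filter, with 1 point per library, 3 libraries per group and a line at the group mean. RNASEH1 with PARP1 knockdown lies between 1.10 and 1.92 CPM, below all other points, while RNASEH2A and RNASEH2C are highest in the same libraries.

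RNASEH1 has a head-to-head partner, RNASEH1-DT, a divergent noncoding transcript that starts 86 bases away in the deposited annotation. RNASEH1-DT was at 15.7, 16.2 and 19.3 CPM in control, at 20.1, 23.6 and 18.3 CPM with TRIM28 knockdown and at 19.9, 29.8 and 33.6 CPM with PARP1 knockdown. All 3 PARP1 knockdown libraries exceeded the highest control library, and RNASEH1-DT rose by 0.70 ± 0.18 on the log2 scale (edgeR adjusted p = 0.00144) where RNASEH1 fell. The rise was not called when library totals replaced the TMM factors (0.36, adjusted p = 0.0747). Nor was it called in any limma setting (0.29 to 0.35, limma adjusted p from 0.0827 to 0.161). With TRIM28 knockdown the log2 fold change was 0.27 ± 0.18 (adjusted p = 0.256). Per length, RNASEH1 stood at 1.61, 1.20 and 0.888 times RNASEH1-DT in control and at 0.0718, 0.0275 and 0.0285 times with PARP1 knockdown.

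No tested gene around RNASEH1 was called lower with it. Of 15 other genes within 100 kb of RNASEH1, 6 were tested, and in PARP1 knockdown 3 rose and 0 fell by edgeR (0 also at an unadjusted p below 0.05 and by DESeq2 and limma), against 27.1% and 32.2% of all tested genes that rose and fell. The ribosomal protein gene RPS7 rose by 0.81 ± 0.14 on the log2 scale (edgeR adjusted p = 2.03e-05), and ADI1, an enzyme of methionine salvage, by 0.51 ± 0.13 (0.00124). The ADI1 call was lost with library totals (0.18, adjusted p = 0.17) and in every limma setting (0.18 to 0.19). The third gene that rose was RNASEH1-DT. TRAPPC12, a vesicle tethering gene, had 0.29 ± 0.13 (0.0523) and was at -0.03 with library totals. ENSG00000286905, on the same strand, spans all of RNASEH1 but had only 162 counts over 9 libraries, with a log2 fold change of 0.93 ± 0.42 (0.0554). ENSG00000287126, with 222 counts, had -0.80 ± 0.41 (0.0944). Reads of the copies RNASEH1P1 and RNASEH1P2 could have been split from RNASEH1, and both had 0 counts in every library, as had RNASEH2CP1. How reads matching several places were counted is not said in the sources used here, so these values do not show whether reads were lost. TOP1P1 had 8 counts in all.

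**Figure D2:**
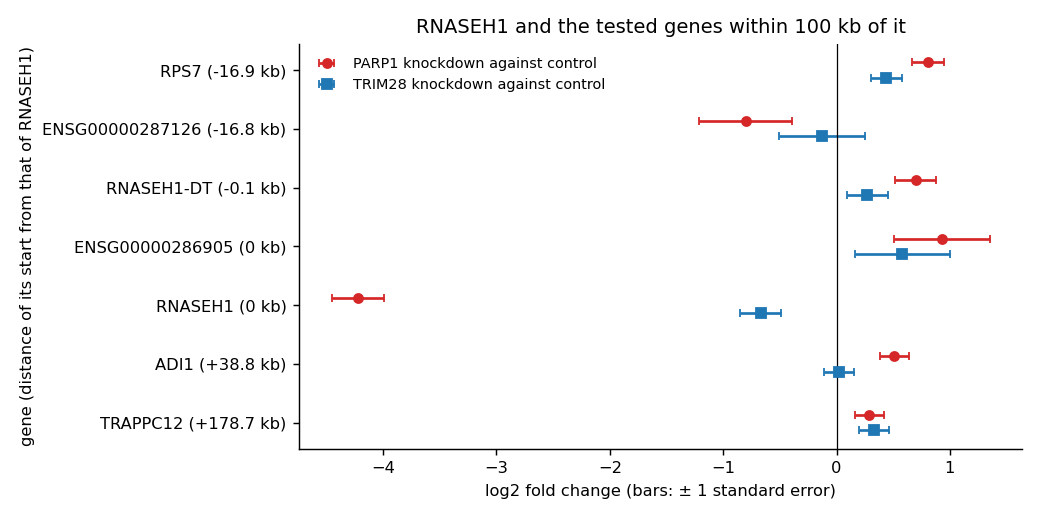
Log2 fold change with 1 standard error for RNASEH1 and the 6 tested genes within 100 kb of either end of it, ordered by the distance between starts. RNASEH1 in PARP1 knockdown lies at -4.22, while RPS7, RNASEH1-DT and ADI1 lie between 0.51 and 0.81.

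No RNase H2 gene was called lower beside RNASEH1 in the edgeR fit with TMM factors. In PARP1 knockdown, 6 of the 8 genes could be tested apart from RNASEH1 and the unmeasured TREX1, and 5 were called, 2 higher and 3 lower, against 59.3% of all tested genes called in either direction. Their median log2 fold change was -0.57, against -0.07 over all tested genes. That low median depends on gene length. With the length trend removed RNASEH2A, RNASEH2B and RNASEH2C were at 0.48, 0.37 and 1.44. AQR, TOP1 and SAMHD1 were then at -0.31, -0.29 and -1.05, and the median of all tested genes was 0.05. The calls before removal of that trend were as follows. The catalytic subunit and RNASEH2C rose, RNASEH2B did not pass, and AQR, TOP1 and SAMHD1 fell. In TRIM28 knockdown 7 were tested, 1 rose and 3 fell, against 27.8% of all genes called, 10.3% higher and 17.5% lower. The median there was -0.59, against -0.02 over all tested genes. With the length trend removed RNASEH2A, RNASEH2B and RNASEH2C were at 0.06, 0.09 and 0.56 in TRIM28 knockdown. RNASEH1, AQR, TOP1 and SAMHD1 were then at -0.51, -0.22, -0.33 and -0.45, and all tested genes had a median of 0.05.

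RNASEH2A (ENSG00000104889, chr19:12806584-12813640, plus strand) carries the active site of RNase H2. It was at 25.8, 27.2 and 32.6 CPM in control, at 34.6, 34.5 and 33.5 CPM with TRIM28 knockdown and at 39.1, 58.2 and 60.5 CPM with PARP1 knockdown. The lowest PARP1 knockdown library lay above the highest of the other 6. The rise was 1.84-fold (log2 fold change 0.88 ± 0.16, edgeR adjusted p = 3.29e-05) over control and 0.62 ± 0.16 (0.00619) over TRIM28 knockdown, whereas TRIM28 knockdown against control gave 0.26 ± 0.16 (0.22). RNASEH2A is short, and genes of its length class had a median of 0.50 in PARP1 knockdown, with 47.8% called higher. With the length trend removed its log2 fold change was 0.48 (adjusted p = 0.0055). HOOK2, which overlaps it on the opposite strand, rose by 0.59 ± 0.21 (0.0199). That call ended without control replicate 1 (0.53) or PARP1 knockdown replicate 3 (0.43) and with library totals (0.26). It also ended with length and GC trends removed (0.29) and by limma (0.15 to 0.26). THSD8, on the same strand with 71 counts in all, had a log2 fold change of 2.71 ± 0.80 (0.00537), which was 1.84 (0.086) after removal of length and GC trends and 0.45 (0.167) by limma with no filter. The sources used here do not say whether counting was by strand, so reads of overlapping genes cannot be told apart.

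RNASEH2C (ENSG00000172922, chr11:65714005-65720818, minus strand), an accessory subunit, rose most among the 8 genes. It was at 23.5, 24.5 and 31.4 CPM in control, at 38.6, 36.9 and 34.5 CPM with TRIM28 knockdown and at 43.6, 64.3 and 83.1 CPM with PARP1 knockdown. The groups are ordered without overlap. Against control the rise was 2.4-fold with PARP1 knockdown (log2 fold change 1.26 ± 0.18, edgeR adjusted p = 1.43e-06), and it was 1.44 with the length trend removed. With TRIM28 knockdown it was 0.47 ± 0.18 (0.0465), a call lost with library totals (0.32, adjusted p = 0.186). It was also lost with length and GC trends removed (0.40, edgeR adjusted p = 0.136) and in every limma setting (0.28 to 0.32). The call ended without any of 6 single libraries as well, where the value ranged from 0.41 to 0.53. These were control replicates 1 and 2, each TRIM28 knockdown library and PARP1 knockdown replicate 2. The direct comparison of PARP1 with TRIM28 knockdown gave 0.79 ± 0.18 (0.00271). KAT5, an acetyltransferase gene on the opposite strand that shares 5600 bases with it, rose by 0.76 ± 0.14 (5.03e-05) with PARP1 knockdown.

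RNASEH2B (ENSG00000136104, chr13:50909747-51024120, plus strand), which links RNase H2 to PCNA, did not pass in any comparison. It was at 9.09, 6.88 and 7.24 CPM in control, at 7.28, 6.06 and 5.00 CPM with TRIM28 knockdown and at 5.10, 6.85 and 7.02 CPM with PARP1 knockdown. The groups overlap. The log2 fold changes were -0.30 ± 0.22 (edgeR adjusted p = 0.248) with PARP1 knockdown, -0.34 ± 0.22 (0.252) with TRIM28 knockdown and 0.04 ± 0.23 (0.921) between knockdowns. The sign depends on scaling: in PARP1 knockdown it was -0.63 (0.0193, a call) with library totals, 0.37 (0.139) once the length trend was removed and 0.67 (0.00688, a call) once GC was removed too. In the table its exons sum to 26222 bases, and genes of its length class had a median of -0.67.

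The ratio of the RNase H2 subunit transcripts was followed per summed exon length, as a description. The size of each ratio depends on the lengths used. RNASEH2B has 26222 summed exon bases, but its longest principal transcript has 1629. Per length of that kind of transcript, mean control levels were 11.6 for RNASEH2A, 5.32 for RNASEH2B and 16.5 for RNASEH1. Per summed exon length, RNASEH2A over RNASEH2B was 36.2, 50.5 and 57.5 in control. It was 60.6, 72.7 and 85.3 with TRIM28 knockdown and 97.9, 108 and 110 with PARP1 knockdown, without overlap. This order of the groups was not kept once the trend on exon length was removed. The log2 fold change of RNASEH2A minus that of RNASEH2B was 1.18 in PARP1 knockdown, 0.11 after removal of the length trend and -0.16 after removal of length and GC trends. In TRIM28 knockdown it was 0.60, then -0.02 and -0.23. RNASEH2C over RNASEH2A was 0.372 to 0.398 in control and 0.457 to 0.568 with PARP1 knockdown, where the difference of log2 fold changes was 0.38, then 0.96 and 0.62. RNASEH2A over RNASEH1 was 2.20 to 4.11 in control and 58.9 to 153 with PARP1 knockdown.

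**Figure D3:**
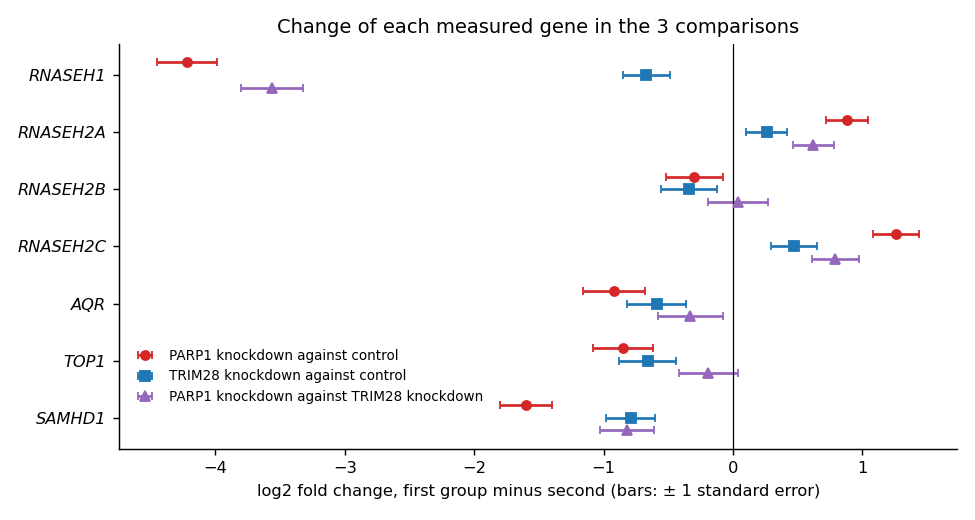
Log2 fold change with 1 standard error for the 7 measured genes in the 3 comparisons. RNASEH1 lies at -4.22 in PARP1 knockdown against control, and RNASEH2A and RNASEH2C at 0.88 and 1.26.

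AQR (ENSG00000021776, chr15:34851782-34969742, minus strand) was at 6.21, 7.21 and 5.21 CPM in control, at 4.05, 4.78 and 3.62 CPM with TRIM28 knockdown and at 2.78, 3.55 and 3.56 CPM with PARP1 knockdown. Every knockdown library was below every control library. AQR fell 1.89-fold with PARP1 knockdown (log2 fold change -0.92 ± 0.24, edgeR adjusted p = 0.00217), and TRIM28 knockdown gave -0.59 ± 0.23 (0.061), a value that was called without control replicate 3 (-0.68, 0.026) or PARP1 knockdown replicate 1 (-0.59, 0.0408). It is a long transcript: the PARP1 knockdown value was -0.31 (0.275) once the length trend was removed and 0.03 (0.923) once GC was removed too. Under the same settings the TRIM28 knockdown value was -0.22 (0.507) and -0.03 (0.942). None of these was called.

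TOP1 (ENSG00000198900, chr20:41028822-41124487, plus strand), the type I topoisomerase of the nucleus, was at 20.3, 22.7 and 11.9 CPM in control. It was at 11.6, 12.6 and 10.5 CPM with TRIM28 knockdown and at 7.62, 8.63 and 14.5 CPM with PARP1 knockdown. Control replicate 3 lies within the knockdown range, and PARP1 knockdown replicate 3 lies above it. TOP1 fell 1.8-fold with PARP1 knockdown (log2 fold change -0.85 ± 0.23, edgeR adjusted p = 0.0025) and by 0.66 ± 0.22 with TRIM28 knockdown (0.0286). The first became -0.29 (0.26) once the length trend was removed and 0.09 (0.763) once length and GC trends were, and the second -0.33 (0.266) and -0.12 (0.72). The TRIM28 knockdown call also ended without control replicate 1 or 2 or any TRIM28 knockdown library, where values ranged from -0.72 to -0.46.

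SAMHD1 (ENSG00000101347, chr20:36890229-36951893, minus strand) showed the largest fall after RNASEH1 among the 8 genes in PARP1 knockdown. It was at 14.9, 16.8 and 12.0 CPM in control, at 8.65, 7.41 and 9.16 CPM with TRIM28 knockdown and at 5.37, 4.65 and 4.25 CPM with PARP1 knockdown. The 3 groups do not overlap. It fell 3.04-fold with PARP1 knockdown (log2 fold change -1.60 ± 0.20, edgeR adjusted p = 3.72e-07) and 1.73-fold with TRIM28 knockdown (-0.79 ± 0.19, 0.00366), and PARP1 knockdown differed from TRIM28 knockdown by -0.82 ± 0.21 (0.00645). With length and GC trends removed the PARP1 knockdown value was -0.68 (0.0022). The TRIM28 knockdown value was then -0.28 (0.196), and it was -0.65 (0.0501) without control replicate 2. The difference between knockdowns was -0.40 (0.121) after removal of both trends.

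TREX1 (ENSG00000213689, chr3:48465811-48467645, plus strand) was listed at 0 counts in all 9 libraries. All 1835 of its bases lie inside ATRIP on the same strand in the table, and in GENCODE 29 all 1515 of its exonic bases are ATRIP exon. The sources used here do not say how reads shared by both genes were counted, so its level is not measured. ATRIP, which recruits the ATR kinase, was at 18.7 to 26.1 CPM. TREX2, the paralog of TREX1, had 2 to 8 counts per library.

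Between the knockdowns, 3 of the 6 testable genes were called, 2 higher and 1 lower in PARP1 knockdown, against 25.1% of all tested genes called, 11.9% higher and 13.2% lower. These were RNASEH2A, RNASEH2C and SAMHD1. AQR had -0.33 ± 0.25 (edgeR adjusted p = 0.36) and TOP1 -0.19 ± 0.23 (0.603).

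**Figure D4:**
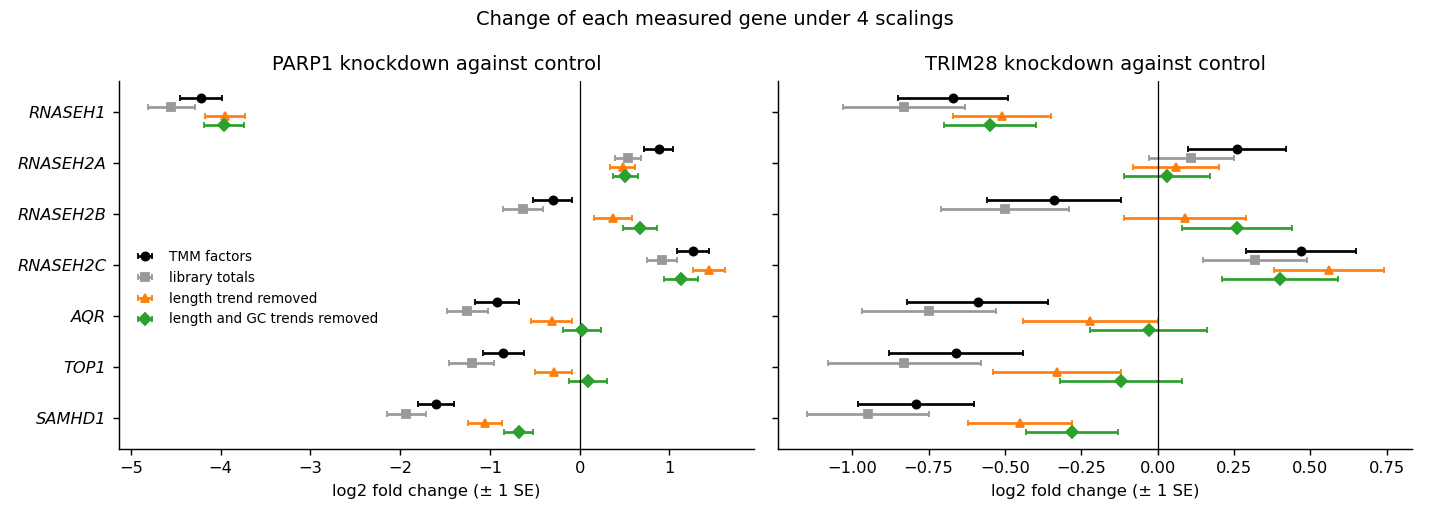
Log2 fold change with 1 standard error for the 7 measured genes in each knockdown against control under 4 scalings: TMM factors, library totals, a removed length trend, and removed length and GC trends. RNASEH1 lies between -4.55 and -3.95 in PARP1 knockdown, and RNASEH2C stays above 0 in both panels. RNASEH2B is above 0 in both panels once the length trend is removed, and in PARP1 knockdown AQR and TOP1 lie at 0.03 and 0.09 once both trends are removed.

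Levels between genes were compared in FPKM, which divides by summed exon length. In control the order was RNASEH2A at 15.5 ± 1.37, RNASEH2C at 5.92 ± 0.736, RNASEH1 at 5.22 ± 1.24, TOP1 at 2.03 ± 0.679, SAMHD1 at 1.51 ± 0.287, AQR at 0.52 ± 0.0954 and RNASEH2B at 0.333 ± 0.0577. RNASEH2C and RNASEH1 overlap, as do TOP1 and SAMHD1. With PARP1 knockdown RNASEH1, AQR and RNASEH2B all stood at 0.217. The order depends on the length used. Per length of the longest principal transcript in GENCODE 29, chosen after seeing the data, control levels were 16.5 for RNASEH1, 11.6 for RNASEH2A and 5.32 for RNASEH2B. For RNASEH2A that transcript has 2753 bases, more than its 2056 summed exon bases in the deposited annotation. Its order with RNASEH1 is therefore not settled.

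The genes most like RNASEH1 were ranked by the root mean square difference of log2 levels, each set against its mean in control, over 9 libraries among 8462 genes. TMX1, a transmembrane thioredoxin relative, was closest at 0.465 and PARP1 next at 0.516, followed by WDR76 at 0.994, the RNA methyltransferase METTL16 at 1.00 and the chaperone HSP90AB1 at 1.01. TMX1 had a log2 fold change of -3.62 with PARP1 knockdown and HSP90AB1 of -2.5. This ranking uses all 9 libraries, so likeness to RNASEH1 in either knockdown is built in, and the values are a description. In TRIM28 knockdown PARP1 was at -0.92, WDR76 at -0.91, METTL16 at -1.34 and HSP90AB1 at -1.07. TMX1 was at -0.64, and at -0.44 without control replicate 1.

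Other genes of R-loop biology were counted in 9 lists, beside 27.1% of all tested genes higher and 32.2% lower in PARP1 knockdown and 10.3% and 17.5% in TRIM28 knockdown. With so many genes called, a list's count says little about the list. Of 15 helicases that unwind RNA-DNA hybrids, 2 rose, 6 fell and 7 did not pass in PARP1 knockdown, no larger a share called than the 59.3% of all tested genes, with a median log2 fold change of -0.42 that became 0.07 with the length trend removed. DHX9, an RNA helicase, fell by 2.26 ± 0.20 on the log2 scale (edgeR adjusted p = 1.83e-09) and DDX1 fell by 1.71 ± 0.19 (4.85e-08). DDX41 rose by 0.63 ± 0.13 (0.00018) and PIF1 by 0.79 ± 0.19 (0.00114). In TRIM28 knockdown 1 of the 15 rose and 4 fell, where DHX9 fell by 1.68 ± 0.19 (1.47e-06) and DDX1 fell by 1.47 ± 0.18 (3.48e-06).

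Of 4 partners of AQR in the intron-binding complex, 2 rose and 1 fell in PARP1 knockdown, with a median of 0.40. XAB2 rose by 0.88 ± 0.14 (edgeR adjusted p = 9.23e-06) and PPIE by 0.87 ± 0.14 (9.89e-06), where AQR itself fell, and ZNF830 fell by 0.96 ± 0.24 (0.00107). Among 8 other topoisomerases and genes that repair their breaks, TDP2, which frees trapped topoisomerase from DNA, was the 1 called, and it fell by 1.25 ± 0.16 (3.52e-07). The other 7 did not pass, and 7 of the 8 were called lower with library totals. The median was -0.27, and 0.11 after removal of the length trend. Of 8 genes of the THO complex and RNA packaging, which keep nascent RNA from pairing with DNA, 3 rose and 4 fell, with a median of -0.33 that became 0.13 after removal of the length trend. ALYREF rose by 0.79 ± 0.13 (1.97e-05), a value of -0.09 with length and GC trends removed, and THOC3 by 0.63 ± 0.13 (0.000258), whereas SRSF1 fell by 1.54 ± 0.16 (1.75e-08) and THOC1 fell by 1.52 ± 0.29 (7.74e-05).

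Genes that act after RNase H2 or beside SAMHD1 were also mixed. Of 6 genes of ribonucleotide excision, 1 rose and 2 fell in PARP1 knockdown, with a median of -0.17. POLD1 rose by 0.62 ± 0.15 (edgeR adjusted p = 0.000973), and the exonuclease EXO1 fell by 1.99 ± 0.29 (2.53e-06) and POLE fell by 0.41 ± 0.15 (0.0244). Of 7 genes of deoxynucleotide supply, 2 rose and 4 fell, with a median of -0.65. RRM1, the large subunit of ribonucleotide reductase, fell by 1.68 ± 0.16 (6.05e-09) and DCK fell by 0.98 ± 0.17 (3.26e-05), while the thymidine kinase TK1 rose by 0.78 ± 0.14 (3.39e-05) but stood at -0.27 with length and GC trends removed. DUT, a dUTPase, rose by 0.37 ± 0.13 (0.0185).

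Of 7 other genes of Aicardi-Goutières syndrome and cytosolic nucleic acid sensing, 1 rose and 2 fell in PARP1 knockdown. The RNA-editing enzyme ADAR fell by 1.91 ± 0.15 (edgeR adjusted p = 3.06e-10) and the DNA sensor CGAS fell by 0.48 ± 0.17 (0.0156), and the transcription factor IRF3 rose by 0.78 ± 0.14 (4.33e-05). The list median of -0.16 became 0.44 with the length trend removed. In TRIM28 knockdown ADAR fell by 1.19 ± 0.14 (2.23e-06), RRM1 fell by 0.95 ± 0.15 (7.43e-05), EXO1 fell by 1.52 ± 0.27 (0.000239) and TDP2 fell by 0.67 ± 0.15 (0.00212). There 1 rose and 0 fell among the AQR partners, 0 and 1 among topoisomerases, 0 and 1 in ribonucleotide excision, 2 and 2 in THO and packaging, 1 and 1 in deoxynucleotide supply and 1 and 1 in nucleic acid sensing, against 27.8% of all tested genes called. These counts changed with the processing.

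RNase H1 is also needed in mitochondria, so mitochondrial genes were counted. Of 12 nuclear genes of mitochondrial DNA maintenance and transcription, 3 rose and 7 fell in PARP1 knockdown, beside 27.1% and 32.2% of all tested genes, with a median of -0.75. The nuclease MGME1 fell by 1.62 ± 0.19 (edgeR adjusted p = 8.66e-08) and TFB2M fell by 1.44 ± 0.21 (1.82e-06), and the mitochondrial RNA polymerase POLRMT rose by 1.00 ± 0.14 (1.70e-06) and SSBP1 by 0.52 ± 0.13 (0.00131). In TRIM28 knockdown 2 fell, and TFAM, which packages mitochondrial DNA, fell by 0.84 ± 0.19 (0.00253). None rose by edgeR, 1 had an unadjusted p below 0.05 and 1 rose by DESeq2. Of 13 messenger RNAs made from mitochondrial DNA, 1 rose and 8 fell in PARP1 knockdown, beside the same shares, with a median of -0.34. MT-ND4L fell by 1.19 ± 0.21 (2.30e-05) and MT-ND5 fell by 0.83 ± 0.16 (7.89e-05), and MT-ND3 rose by 0.39 ± 0.14 (0.0169) but stood at -0.19 with the length trend removed, where 0 rose and 12 fell with a median of -0.89. In TRIM28 knockdown 0 of the 13 passed by edgeR, with a median of 0.20 (-0.08 once the length trend was removed), 3 had an unadjusted p below 0.05 and 2 passed by DESeq2. The least p was that of MT-CO3 (0.33 ± 0.13, edgeR adjusted p = 0.0528). Between knockdowns 10 of the 13 were lower with PARP1 knockdown, beside 13.2% of all tested genes. These messages are selected here by their poly(A) tails, and how that selection bears on them was not tested.

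Smaller calls among the named list genes ended when any of several libraries was left out. In PARP1 knockdown the calls of POLE, DUT, CGAS and MT-ND3 ended without control replicate 1 or PARP1 knockdown replicate 2, where their values ranged from -0.43 to 0.37. In TRIM28 knockdown the calls of DDX41, PPIE, ALYREF, THOC3, SRSF1, THOC1, DUT, STING1 and MGME1, with log2 fold changes from -0.97 to 0.51, ended without TRIM28 knockdown replicate 2, where they ranged from -0.84 to 0.47. All of these but THOC1 also ended without control replicate 1. Calls over all tested genes in TRIM28 knockdown fell as well, from 3768 to 1981 without TRIM28 knockdown replicate 2. Without control replicate 1 there were 1552. Fewer libraries leave less power, so these losses do not show that a call came from 1 library.

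**Figure D5:**
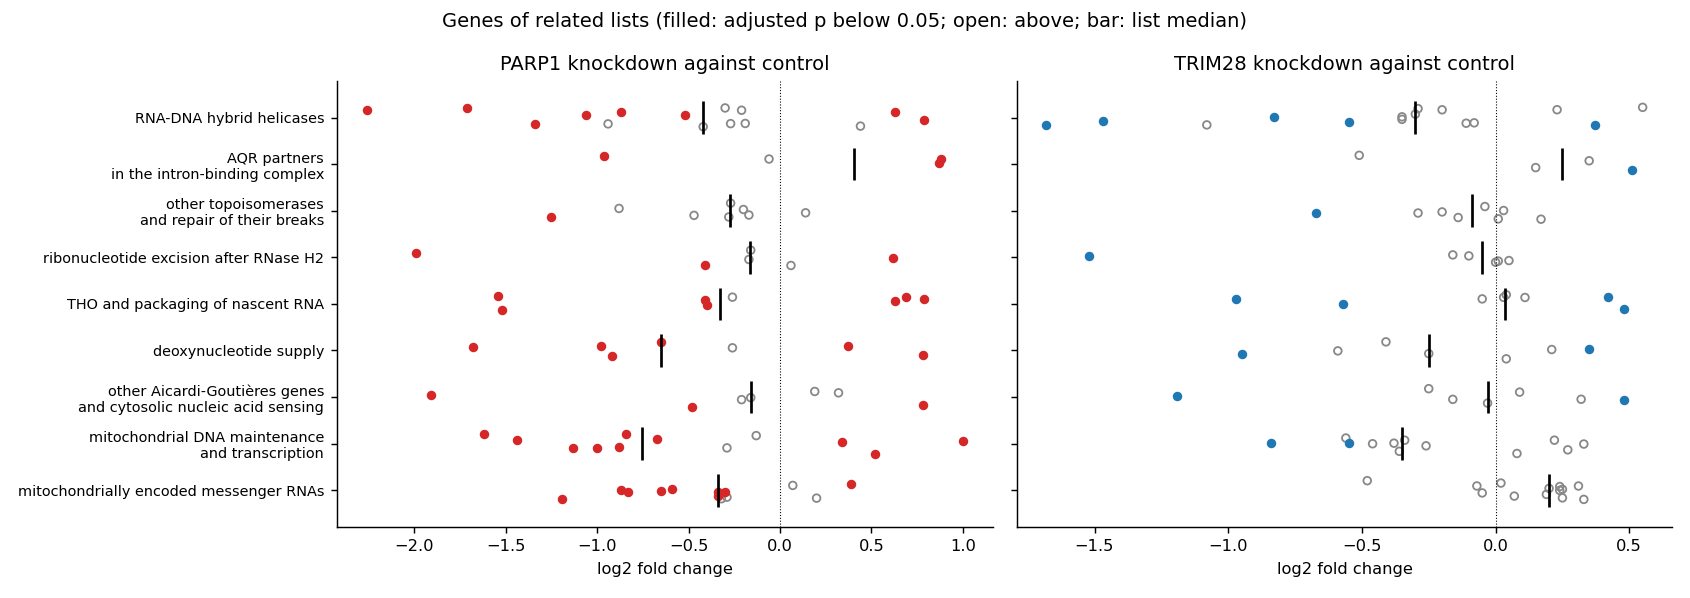
Log2 fold change of every tested gene in 9 related lists for each knockdown against control, with filled points for an adjusted p below 0.05, open points above it and a bar at the list median. Points lie on both sides of 0 in PARP1 knockdown, from -2.26 for DHX9 to 1.00 for POLRMT.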

How the data were processed

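The 8 genes and the 9 related lists (80 genes) were chosen with earlier results of these data known. The authors deposited raw counts per gene and FPKM values, per the file headers, and gene coordinates and summed exon lengths come from the same table. The submitters' processing notes name STAR 2.7.9a and featureCounts 2.0.1 on GRCh38, with quality control by FastQC 0.11.9 and trimming by Trim Galore 0.6.6. The annotation release: not given in the sources used here.

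Counts entered edgeR 4.0.16 under R 4.3.3 (TMM factors, the package's low-count filter, quasi-likelihood test, 9 libraries in 1 fit with 6 residual degrees of freedom, Benjamini-Hochberg adjustment at 0.05, two-sided). The script was tested first on simulated data, with far fewer genes changed than were called here. For PARP1 knockdown against control it recovered 12.7% of 1.5-fold and 69.6% of 2-fold changes. For TRIM28 knockdown against control it recovered 14.5% and 85.7%. A gene that did not pass may therefore still have changed by a small fold. Length and GC trends were removed per library by lowess with a span of 0.3. GC content came from GENCODE 29 for 13390 genes, 98.7%. Alternatives were DESeq2 1.42.0, its size factors, library totals, no filter, limma 3.58.1 on log2(FPKM + 1, 0.1 or 0.01) with mean FPKM of at least 0.5 or 2 or no filter, a fit of only the groups compared, a block on replicate number and each library left out. Start regions are from RefSeq. For each list the members named were those with the smallest adjusted p in each direction, up to 2, or, with none past the threshold, the 1 with the lowest p. Also named were the 5 genes most like RNASEH1, its tested neighbours within 100 kb and genes overlapping the 8. No replicate pair agreed within sampling noise.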

Additional observations from a re-analysis of the deposited data

How the results depend on the processing

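RNASEH1 kept its direction under every alternative run. Its PARP1 knockdown value was -2.34 by limma on log2(FPKM + 1), a scale that understates falls of low genes, under each of the 3 filters. In PARP1 knockdown 8042 genes and 5 of the 6 testable genes described were called. The counts were 4785 and 2 by limma at a mean FPKM of at least 2, where fewer genes were tested, and 3 of the 6 with the length trend removed. Leaving out each library gave 5 of the 6 in every case. In TRIM28 knockdown 3768 genes and 4 of the 7 testable genes described were called. The gene count was 2353 and 2250 by limma with pseudocounts of 0.1 and 0.01, 1744 at a mean FPKM of at least 2 and 1069 with no filter, and 1552 to 4936 when each library was left out. The count of the 7 was 2 with the length trend removed and by limma with each pseudocount. It was 1 with length and GC trends removed and by limma at a mean FPKM of at least 2 or with no filter. Leaving out each library gave 1 to 5, with 1 without control replicate 1 or 2. Between knockdowns 3407 genes and 3 of the 8 were called. The gene count was 1983 with length and GC trends removed, 63 by limma with no filter and 1669 to 4726 when each library was left out. The count of the 6 was 0 by limma with no filter. RNASEH2B and AQR could not give a value by limma where a mean FPKM of at least 0.5 was required, nor could TOP1 and SAMHD1 at 2.

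Some values changed sign. With the length trend removed they were RNASEH2B at 0.37 in PARP1 and 0.09 in TRIM28 knockdown, TOP1 at 0.03 between knockdowns, POLE at 0.17 and MT-ND3 at -0.19. With length and GC trends removed they were RNASEH2B at 0.67 and 0.26, AQR at 0.03 and TOP1 at 0.09 in PARP1 knockdown, AQR at 0.06 and TOP1 at 0.21 between knockdowns, ALYREF at -0.09 and TK1 at -0.27. TRAPPC12 was at -0.03 with library totals and at -0.03 to -0.04 by limma. RNASEH2B between knockdowns was -0.13 with library totals, -0.02 by limma with no filter and -0.07 to 0.19 when each library was left out. AQR in TRIM28 knockdown was called with library totals (-0.75), with only the 2 groups compared (-0.59) and without control replicate 3 or PARP1 knockdown replicate 1. The cause of these changes was not tested.

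Library totals moved the median of all genes by -0.32, -0.16 and -0.17 on the log2 scale in PARP1, TRIM28 and the direct comparison. Calls split into 3681 higher and 4361 lower in PARP1 knockdown, against 2024 and 5803 with library totals, 2140 and 4607 by limma, 3883 and 3360 with the length trend removed and 3236 and 3063 with both trends removed (more higher than lower in both). In TRIM28 knockdown they split into 1394 and 2374, against 453 and 2856, 541 and 2162, 1566 and 1671, and 1474 and 1418. In the direct comparison they split into 1612 and 1795, against 640 and 2350, 672 and 1720, 1638 and 1306, and 1026 and 957, in the same order of settings.

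Replicate numbers are shared by the groups, but same-numbered libraries did not deviate together in every pair (correlations of 0.0344, 0.03 and 0.0796 for PARP1 knockdown and control, 0.141, 0.0113 and 0.106 for TRIM28 knockdown and control), and not every library correlated best with its own number. With a replicate block 8071 genes and 5 of the 8 were called in PARP1 knockdown, and TOP1 in TRIM28 knockdown had -0.65 with an edgeR adjusted p of 0.0505. Across the alternatives calls per list in PARP1 knockdown ran from 5 to 11 of 15 for helicases, 1 to 7 of 8 for topoisomerases, 2 to 5 of 6 for ribonucleotide excision, 4 to 7 of 8 for THO and packaging, 2 to 5 of 7 for nucleic acid sensing, 6 to 10 of 12 for mitochondrial maintenance and 5 to 12 of 13 for mitochondrial RNAs. In TRIM28 knockdown they ran from 2 to 6 for helicases, 0 to 3 of 4 for AQR partners, 1 to 2 for topoisomerases, 0 to 1 for ribonucleotide excision, 0 to 4 for THO and packaging, 1 to 4 for deoxynucleotide supply, 1 to 3 for nucleic acid sensing, 1 to 5 and 0 to 3 for the mitochondrial lists.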
